A study of Macaca nemestrina with 15 samples.

Results

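The genes described here are 9 genes of the T-cell receptor complex and of the first signalling steps behind it: *CD3D*, *CD3E*, *CD3G*, *CD247*, *LCK*, *ZAP70*, *LAT*, *LCP2* and *CD28*. They were taken by gene name from a count table of 28865 features, in which each name was found, and all 9 were among the 12880 features that passed a filter on low counts. The samples were peripheral blood mononuclear cells (PBMCs), the lymphocytes and monocytes of blood, from 5 female pig-tailed macaques (*Macaca nemestrina*). Every animal was given islatravir (ISL), a nucleoside inhibitor of the HIV reverse transcriptase, by mouth at 30 mg/kg once a week, for 12 doses in all. Each animal gave RNA for sequencing before the first dose (pre-treatment), in week 12 of dosing and in week 18, after dosing had stopped, which makes 15 libraries in 3 groups of 5. No untreated animals were among them, so time and treatment cannot be told apart. By the dates in the library names, 56 to 57 days passed from the first to the second sample of an animal and 84 days to the third, whereas the labels call them week 12 and week 18, and those names are kept here.

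T cells recognise antigen through a receptor whose variable chains have no signalling tails of their own. The CD3 chains, which are the products of *CD3D*, *CD3E* and *CD3G*, and the zeta chain from *CD247* carry the signal into the cell, and the kinase LCK, held at the coreceptors CD4 and CD8, phosphorylates them. ZAP-70 then docks on the phosphorylated tails and phosphorylates the adaptors LAT and SLP-76 (the product of *LCP2*), while CD28 gives the second, costimulatory signal. The CD3 proteins mark T cells in blood, whereas zeta, LCK, ZAP-70, LAT and SLP-76 are also made in natural killer (NK) cells, and SLP-76 in monocytes.

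The depth was 5610597 to 10379572 counts per library (median 8871860). Over the 9 genes a library held from 100 counts, for *CD3E*, upward. Levels are given as CPM, the usual scale of counts relative to library size, after TMM scaling, in which each library size is corrected by a factor, here 0.94 to 1.11. They compare libraries for one gene, not genes with each other, because no gene lengths were used. The week 12 and week 18 libraries of animal Z15303 had the fewest counts (5610597 and 5886482) and stood apart on the first principal component, and the pre-treatment library of animal Z15408 had the highest TMM factor. Where leaving these libraries out turned a member's fold change against pre-treatment, or moved it by over 1.5 times, both values are given. Markers of T cells, NK cells, B cells, monocytes and platelets were present in each group, and no gene of these lists was at 0 in every library. The platelet gene *PPBP* was at 1229 to 4635 CPM. In bulk RNA, fewer cells of a type and less RNA per cell cannot be told apart.

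No difference between time points beyond the spread between animals was detected for any of the 9 genes. At week 12 vs. pre-treatment 8 of the 9 log2 fold changes were above 0 (51% of all tested features were), with a median of 0.14 and a range from −0.080 for *CD28* to 0.27 for *CD3E*. The median over all features was 0.0037. At week 18 vs. pre-treatment again 8 of 9 were above 0 (50.2% of all features), with a median of 0.067 and a range from −0.071 to 0.39, whose ends were the same pair of genes. Both comparisons use the same pre-treatment libraries. At week 18 vs. week 12, 3 of 9 were above 0 (48.9% of all features), and the median was −0.034. The animals Z15303, Z15339 and Z15408 carry the same dates in their library names, and Z13076 and Z15228 dates of their own. Within the first set of animals the members' medians were 0.19, 0.25 and 0.019 in the 3 comparisons, and within the second they were 0.13, −0.055 and −0.19, so the direction at week 18 did not hold in both. Without the later libraries of Z15303, 6 of 9 members were above 0 at week 12 and 6 at week 18, and without the pre-treatment library of Z15408 these counts were again 6 and 6. Without the animal Z15408 altogether 9 were above 0 at week 12 and 4 at week 18. With a term for the animal in the fit, 7 and 7 were above 0 without the later libraries of Z15303. Without the pre-treatment library of Z15408 that fit gave 7 and 3.

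With edgeR's quasi-likelihood F test, 0 of the 9 genes passed an adjusted p of 0.05 in any of the 3 comparisons, as was the case for all 12880 features (0%). At an unadjusted p under 0.05 the count of members was also 0 in each comparison, against 207 features at week 12 (1.61%), 218 at week 18 (1.69%) and 65 between them (0.505%). Without a block the smallest unadjusted p among the members was 0.225 at week 12 and 0.216 at week 18, both for *LAT*, in edgeR's test. With the animal as a block, which removes what an animal's 3 libraries share, 1 feature passed at week 12 (0.00776%), 1 at week 18 (0.00776%) and 0 between the later times, and no member did. Then 604, 754 and 279 features (4.69%, 5.85% and 2.17%) had an unadjusted p under 0.05, and again no member. DESeq2's Wald test and limma-voom also called 0 members. The 95% intervals of the members' log2 fold changes reached from −1.11 to 1.66 at week 12 and from −0.99 to 1.78 at week 18, with both outer ends at *CD3E*. With the block they reached from −0.39 to 0.51 and from −0.38 to 0.62. The standard errors given below for single genes are from the fit without the block, unless the block is named. That fit does not pair an animal's libraries, so lasting differences between animals widen them. At week 12 they were 0.65 for *CD3E*, 0.24 for *CD3G*, 0.11 for *LAT* and 0.58 for *MS4A1*, a B-cell gene. With the block these were 0.15, 0.12, 0.10 and 0.19.

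**Figure D1:**
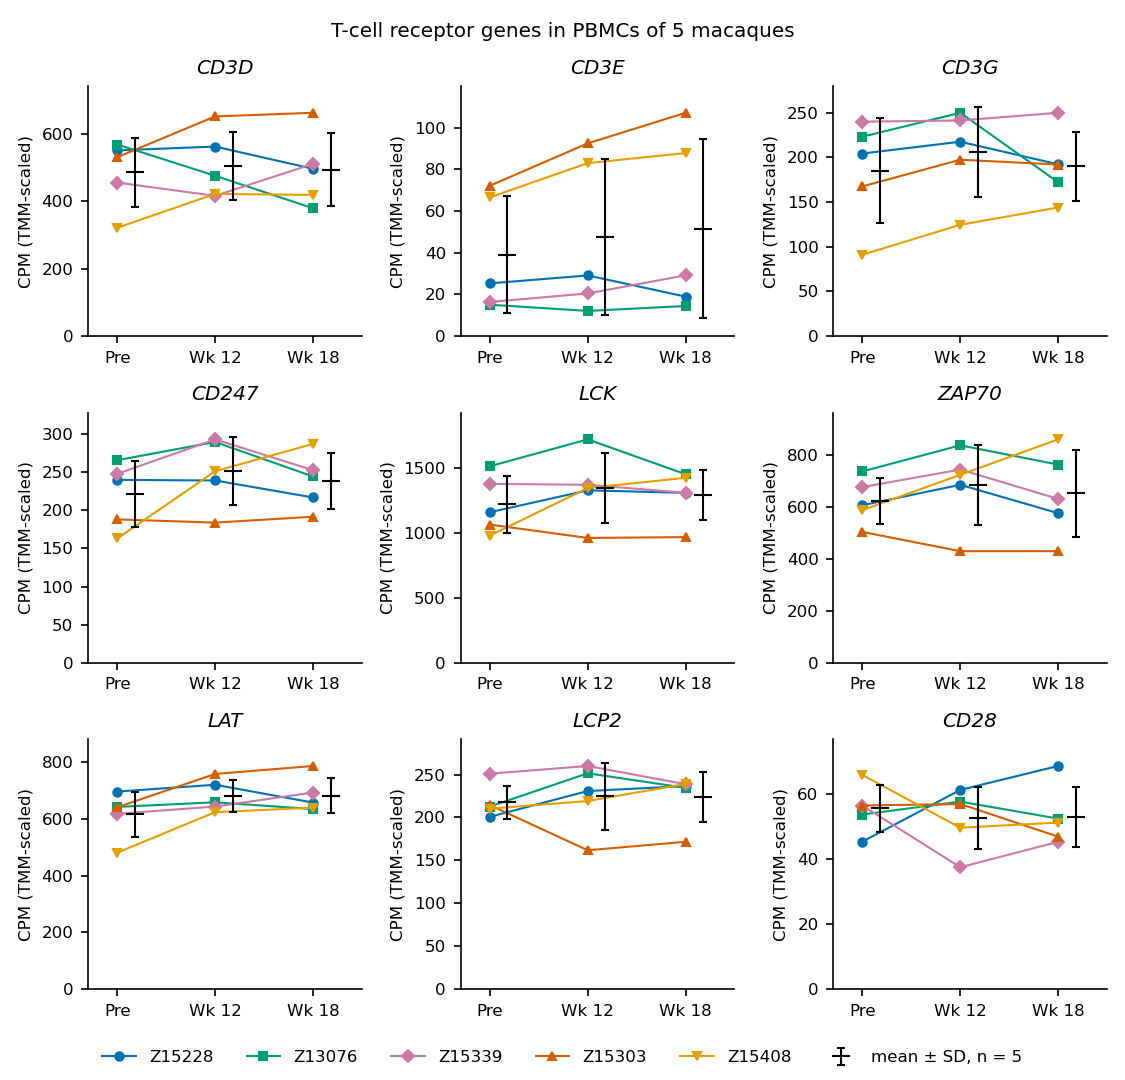
Level of each gene in CPM (linear axis from 0) at pre-treatment, week 12 and week 18, with 1 line per animal and the mean ± SD of 5 animals in black. The lines of *CD3E* fall into an upper pair, 66.5 to 107 CPM, and a lower set of 3 animals, 12.0 to 29.1 CPM, at each time point, while the lines of *CD28* cross.

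*CD3E*, the epsilon chain that pairs with both other CD3 chains, varied most among the members, with a range of 8.89-fold over the 15 libraries. Its level was 39.1 ± 28.0 CPM pre-treatment, 47.4 ± 37.4 at week 12 and 51.5 ± 42.9 at week 18 (mean ± SD over 5 animals). In animal Z15303 it was 72.1, 92.4 and 107 CPM at the 3 time points, and in Z15408 it was 66.5, 83.0 and 87.8 CPM. Far below these lay Z15228 with 25.3, 29.1 and 18.9 CPM, Z15339 with 16.4, 20.4 and 29.1 CPM, and Z13076 with 15.01, 12.0 and 14.4 CPM. No library of the lower 3 animals came near the lowest of the upper pair. Within an animal the time points differed by up to 0.82 on the log2 scale, in Z15339 at week 18 vs. pre-treatment. The ranges of Z15303 and Z15408 overlapped, as did those of Z15228 and Z15339, and Z13076 lay below every other animal. The log2 fold change of *CD3E* was 0.27 (standard error 0.65) at week 12, when 4 of 5 animals were higher, and 0.39 (0.65) at week 18, when 3 of 5 were. Without the later libraries of Z15303 these values turned to −0.11 and −0.054, because an animal with a high level was then counted before treatment alone. With the block, which pairs the libraries, they did not turn. Without the pre-treatment library of Z15408 they were 0.56 and 0.67 in the fit with no block. With all libraries and the block they were 0.19 (standard error 0.15) and 0.29 (0.16).

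*CD3D*, the delta chain, had 485 ± 101 CPM pre-treatment, 505 ± 100.5 at week 12 and 493 ± 109 at week 18. Pre-treatment levels ran from 321 CPM in Z15408 through 455 in Z15339, 530.0 in Z15303 and 550.0 in Z15228 to 567 in Z13076. At week 12 they were 421, 415, 651, 561 and 475 CPM in the same order of animals, and at week 18 they were 418, 510.1, 662, 496 and 379 CPM. The animals went different ways: at both later times *CD3D* was above its pre-treatment level in Z15303 and Z15408 and below it in Z13076. The log2 fold change was 0.058 (standard error 0.18) at week 12 and 0.024 (0.18) at week 18. It turned to −0.0067 and −0.064 without Z15303, and to −0.055 and −0.092 without the pre-treatment library of Z15408.

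For *CD3G*, the gamma chain, the mean was 185 ± 59.1 CPM pre-treatment, 206 ± 50.02 at week 12 and 189.9 ± 38.8 at week 18. Z15339 was at 239.8, 241 and 249.8 CPM, Z13076 at 223, 249.8 and 172 CPM, and Z15228 at 204, 217 and 192 CPM. Lower values were found in Z15303, with 167, 197 and 192 CPM, and in Z15408, with 91.0, 124 and 144 CPM. Z15408 was the lowest animal at every time point, and its levels overlapped with those of no other animal. *CD3G* was 1 of 2 members, with *LAT*, that were higher at week 12 in 5 of 5 animals, a pattern seen in 2.23% of all tested features, and no member was lower in all 5 (3.45% of features). At week 18 no member was higher in 5 of 5 animals (3.04% of features) or lower in 5 of 5 (3.49%), and between the later times none was either (2.99% and 2.87%). Its within-animal difference ran from 0.0083 in Z15339 to 0.45 in Z15408 on the log2 scale. Its log2 fold change was 0.15 (standard error 0.24) at week 12, and 0.037 (0.24) at week 18, and without the pre-treatment library of Z15408 these turned to −0.015 and −0.13.

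*CD247* encodes the zeta chain, the part of the receptor with the most phosphorylation motifs. It had 221 ± 43.5 CPM pre-treatment, 252 ± 44.5 at week 12 and 239 ± 36.3 at week 18. Its log2 fold change was 0.19 (standard error 0.16) at week 12 and 0.11 (0.16) at week 18. The largest differences were in Z15408, in which *CD247* was at 163 CPM pre-treatment, 251 at week 12 and 287 at week 18. In the other animals the within-animal differences at week 18 lay between −0.15 and 0.028, and without Z15408 the log2 fold change was −0.055. It was 0.28 and 0.18 at the 2 later times without the later libraries of Z15303, and 0.099 and 0.020 without the pre-treatment library of Z15408.

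Of the kinases, both were at their lowest in Z15303 at the later times. *LCK* was at 1216 ± 221, 1342 ± 268 and 1289 ± 193 CPM at the 3 time points. It was highest in Z13076, with 1510.0, 1717 and 1449 CPM. It was 1375, 1367 and 1306 CPM in Z15339 and 1156, 1325 and 1306 CPM in Z15228. In Z15303 it was 1061, 959 and 965 CPM, the lowest of the animals at both later times, and in Z15408 it went from 977 CPM, the lowest pre-treatment value, to 1342 and 1421. *ZAP70* had 621 ± 88.8, 683 ± 153 and 651 ± 167 CPM. Z15303 was lowest at every time point, with 503, 429 and 429 CPM, and did not overlap with any other animal. Z15408 ran from 587 to 723 and 859 CPM, the highest value of all at week 18, and Z13076 was highest before that, with 736 and 836 CPM. The log2 fold changes of *LCK* were 0.14 (standard error 0.16) and 0.085 (0.16), and those of *ZAP70* were 0.14 (0.19) and 0.067 (0.19). At week 18 both turned without Z15408, to −0.021 for *LCK* and −0.072 for *ZAP70*. Without the later libraries of Z15303 they were 0.24 and 0.17 for *LCK* and 0.26 and 0.19 for *ZAP70*. Without the pre-treatment library of Z15408 they were 0.076 and 0.016 for *LCK* and, at week 18, 0.049 for *ZAP70*.

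Of the adaptors, *LAT*, the membrane scaffold that ZAP-70 phosphorylates, had the smallest unadjusted p of the members in both comparisons with pre-treatment in the fit with the time point alone, whereas with the block that was *CD3G* at week 12 (edgeR unadjusted p = 0.155) and *CD3E* at week 18 (0.0757). Pre-treatment it was at 481 CPM in Z15408, 618 in Z15339, 641 in Z15303, 642 in Z13076 and 696 in Z15228. At week 12 the values in that order were 624, 643, 758, 658 and 720.1 CPM, and at week 18 they were 639.5, 693, 786, 634 and 657 CPM. Each animal was higher at week 12 than before, by 0.036 to 0.37 on the log2 scale, but the groups overlapped, and at week 18 the level was higher in 3 of 5. The log2 fold change was 0.14 (standard error 0.11, 95% interval −0.098 to 0.39) at week 12 and 0.15 (0.11, −0.095 to 0.39) at week 18. Without the pre-treatment library of Z15408 it was 0.072 at each time, and without the later libraries of Z15303 it was 0.091 at week 18. *LCP2*, whose product SLP-76 binds the phosphorylated LAT complex, had 218 ± 19.3, 225 ± 38.7 and 224 ± 29.4 CPM. Its levels were 214, 162 and 172 CPM in Z15303, where both later values were the lowest of their time point, and 201 to 260.0 CPM in the 12 libraries of the other animals. Its log2 fold changes were 0.045 (standard error 0.13) and 0.041 (0.13), or 0.14 and 0.12 without the later libraries of Z15303.

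*CD28* was the member whose log2 fold changes lay below 0 in both comparisons with pre-treatment. Its level was 45.3, 61.2 and 68.5 CPM in Z15228 and 65.7, 49.6 and 51.1 CPM in Z15408, so the lowest animal before treatment was the highest at week 18. It was 56.3, 37.4 and 45.2 CPM in Z15339, 53.6, 57.6 and 52.4 in Z13076, and 56.4, 56.8 and 46.8 in Z15303. The order of the animals thus changed from one time point to the next. The log2 fold change was −0.080 (standard error 0.15) at week 12, when 3 of 5 animals were higher, and −0.071 (0.15) at week 18, when 1 of 5 was. Without the pre-treatment library of Z15408 these values were −0.0078 and −0.0011, and without the later libraries of Z15303 the value at week 18 was −0.031.

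**Figure D2:**
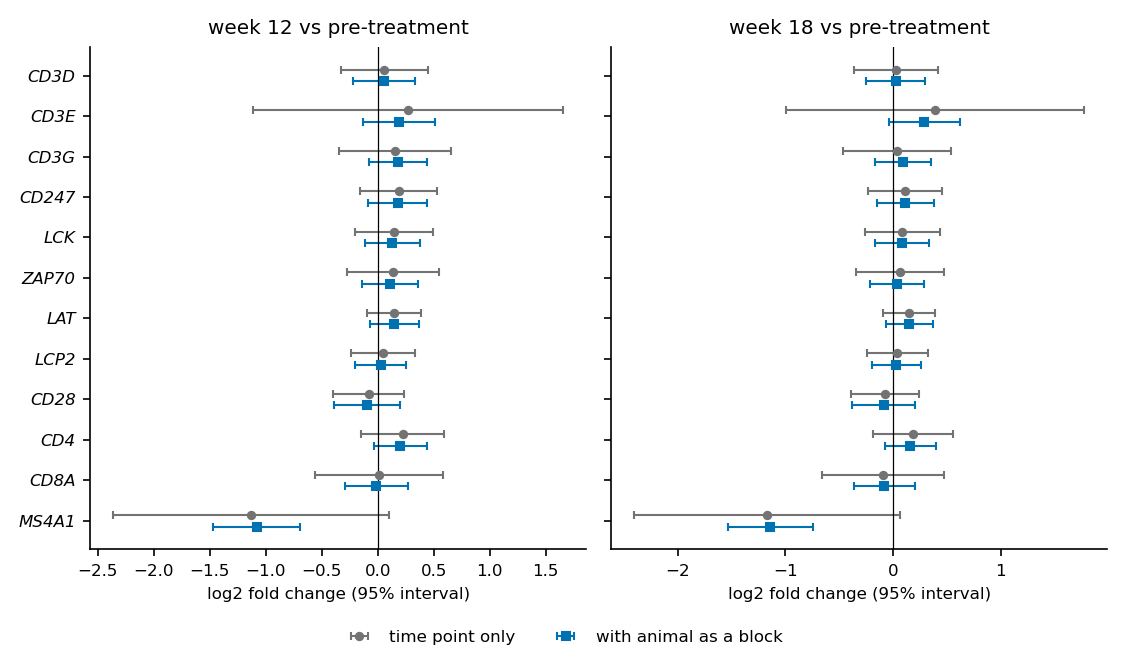
log2 fold change of each gene, with its 95% interval, at week 12 (left) and week 18 (right) vs. pre-treatment, in edgeR's fit with the time point alone (grey circles) and with the animal as a block (blue squares). The line at 0 means no difference, and the intervals of the 9 members and of *CD4* and *CD8A* cross it in both fits, whereas those of *MS4A1* lie below it with the block.

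For each of the 9 members a larger share of the sum of squares lay between animals than between time points. By their number alone 5 animals take a larger share than 3 time points, so the shares are a description. In edgeR's quasi-likelihood F test of the animal terms, with the time point in the model, 5 of the 9 members passed an adjusted p of 0.05, where 3983 of 12880 features did (30.9%). These were *CD3E* (F = 72.4, edgeR adjusted p = 4.6e-08), *CD3G* (F = 11.3, adjusted p = 0.00128), *ZAP70* (F = 7.22, adjusted p = 0.00831), *LCK* (F = 4.60, adjusted p = 0.0369) and *CD3D* (F = 4.35, adjusted p = 0.0432). *CD3E* had the 30th smallest p of all 12880 features. *CD247*, *LCP2*, *LAT* and *CD28* did not pass (edgeR adjusted p = 0.105, 0.131, 0.315 and 0.541). Of the sum of squares of *CD3E* on the log2 scale, 95.3% lay between animals and 0.999% between time points, and for *CD3G* the shares were 81.8% and 3.84%. At the other end *CD28* had 26.8% between animals and 3.30% between time points, while *LAT* had the largest share between time points of the members, 21.5%. Over all tested features the medians were 51.9% between animals and 6.23% between time points.

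*CD3E* passed whichever animal was left out, and the other calls depended on single animals. Without Z15303, 2 of 9 members passed, *CD3E* and *CD3G*, and 17.7% of the features. The same pair passed without the 3 libraries that stood apart, in a setting chosen after the data were seen, with 15.6% of the features. Without Z15408 *CD3G* and *CD3D* no longer passed and *CD247* did. The call for *CD3D* was lost without any of Z15228, Z15339, Z15303 and Z15408, and that for *LCK* without any of Z13076, Z15339 and Z15303. With library sizes in place of TMM scaling *CD3D* no longer passed and *CD247* did.

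The proportions between the chains differed between animals too, and they do not depend on the scaling, since both counts come from one library. Counts of *CD3E* were 19.7% to 21.0% of those of *CD3D* in Z15408 and 13.6% to 16.2% in Z15303. In the other animals they were 3.60% to 5.71% (Z15339), 3.82% to 5.18% (Z15228) and 2.54% to 3.80% (Z13076). The upper pair did not overlap with each other or with the lower animals, and the 3 time points of an animal differed by less than these gaps. Z15303 and Z15408 carry the same dates in their library names, and so does Z15339, which lay with the lower animals. The part of the dates in this split was not tested. Counts of *CD3G* were 28.4% to 34.4% of those of *CD3D* in Z15408 and 29.0% to 31.6% in Z15303, against 37.1% to 38.8% in Z15228, 39.3% to 52.6% in Z13076 and 49.0% to 58.1% in Z15339. The animals with the larger *CD3E* share thus had the smaller *CD3G* share. *LCK* counts per *CD3D* count set Z15303, with 1.46 to 2.002, below the other animals, whose values ran from 2.10 to 3.83. These are ratios of counts and not of transcripts per gene length, and they were not tested further.

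**Figure D3:**
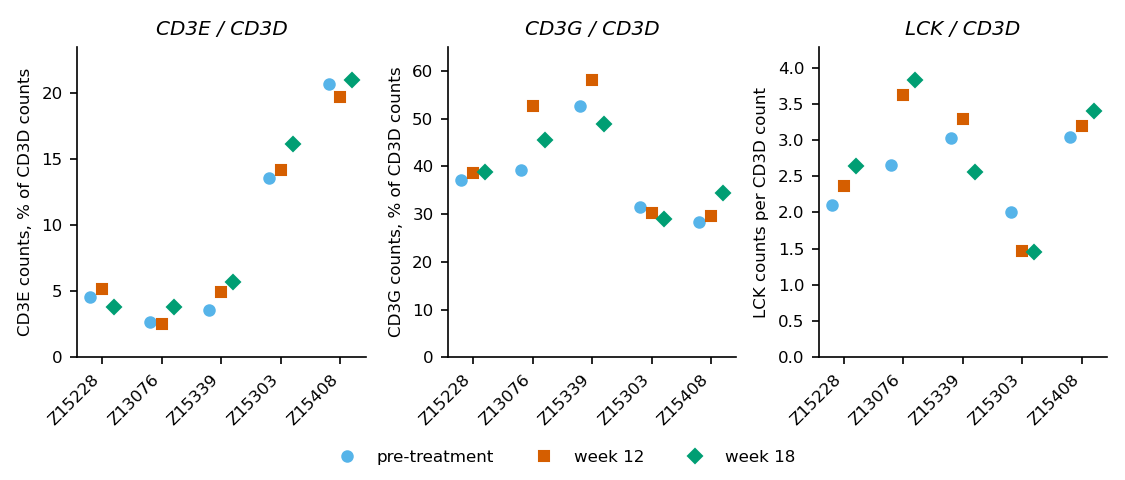
Ratios of counts within a library, by animal on the horizontal axis, with 1 point per time point: *CD3E* as a percentage of *CD3D* (left), *CD3G* as a percentage of *CD3D* (middle) and *LCK* counts per *CD3D* count (right), on linear axes from 0. The *CD3E* share lies at 2.54% to 5.71% in 3 animals and at 13.6% to 21.0% in Z15303 and Z15408.

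Across the 15 libraries some members went together by their log2 CPM (Pearson's r, given as a description, since 3 libraries share each animal). *CD247*, *LCK* and *ZAP70* went together, with r of 0.84 to 0.89, and *LCP2* went with them, with 0.69 to 0.81. *CD3D* and *LAT* had an r of 0.87, and *CD3G* had 0.56 with *CD3D* and 0.63 with *LAT*. The sets were not separate throughout, since *CD3G* also had 0.50 with *CD247* and 0.41 with *LCK*, while *CD3D* had −0.57 with *ZAP70*. *CD3E* had −0.72 with *LCK* and 0.15 with *CD3D*. Each animal's mean was also taken out, which leaves changes over time together with the noise of single libraries. After this *CD3E* had 0.74 with *LAT* and 0.59 with *CD3D*, and *CD3G* had 0.79 with *CD3D* and 0.83 with *CD247*. *CD28* then had negative values with every member but *LCP2* (−0.58 to −0.090). Without the 3 libraries that stood apart, a setting chosen after the data were seen, r over the 12 others was 0.77 to 0.89 among *CD247*, *LCK* and *ZAP70* and 0.63 for *CD3D* with *LAT*, but 0.45 to 0.53 for *LCP2* with the kinase set, 0.39 for *CD3G* with *CD3D* and with *LAT*, and −0.51 for *CD3E* with *LCK*. With the animal means taken out as well, *CD3E* had 0.85 with *LAT* and 0.40 with *CD3D*, and *CD28* had values above 0 with 4 members, up to 0.56 with *LCK*.

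Markers of NK cells and of other cell types moved with or against part of these genes, and which ones depended on whether the animal means were kept. The NK list of 17 genes holds cytotoxic genes such as *NKG7* and *GNLY*, and whether it tells NK cells from cytotoxic T cells was not tested. With the mean log2 CPM of this list, r over the 15 libraries was 0.87 for *CD247*, 0.75 for *LCK*, 0.67 for *CD3G* and 0.66 for *ZAP70*. It was 0.0049 for *CD3D*, 0.11 for *LAT* and −0.70 for *CD3E*. After the mean of each animal was taken out, r was 0.79 for *CD247*, 0.70 for *CD3G*, 0.60 for *CD3D*, 0.58 for *ZAP70*, 0.51 for *LAT*, 0.48 for *LCK* and 0.29 for *CD3E*. Without the 3 libraries that stood apart, these within-animal values were 0.75, 0.54, 0.50, 0.37, 0.25, −0.0059 and 0.19 in the same order of genes. *CD28* went against the NK list, with −0.52 over the 15 libraries and −0.64 after the animal means were taken out. Without the 3 libraries as well it had −0.61. *LCP2* had 0.56 over the 15 libraries. With 18 T cell markers that are not members, r was 0.15 for *CD247*, 0.31 for *LCK* and −0.050 for *CD3D*. After the animal means were taken out, these were 0.24, 0.50 and 0.046, and *LCP2* had 0.45, against −0.065 with the NK list. Without the 3 libraries as well, they were 0.016, 0.65 and −0.18, and *LCP2* had 0.72, against −0.35 with the NK list. Values of like size were found with other lists. *CD3G* had −0.65 with the monocyte markers over the 15 libraries and −0.66 after the animal means were taken out. In the latter setting *LAT* had −0.63 with the B cell markers. Without the 3 libraries as well, these within-animal values were −0.81 and −0.20. The summed level of the NK list was 5464 to 10859 CPM pre-treatment, 7293 to 12841 at week 12 and 7102 to 10324 at week 18. With the platelet markers, r over the 15 libraries was 0.59 for *LAT* and 0.58 for *CD3D*, and without the 3 libraries −0.013 and 0.10. After the animal means were taken out from all libraries, it was 0.18 and −0.024. The part of NK cells and of platelets in the levels of these members was not tested.

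**Figure D4:**
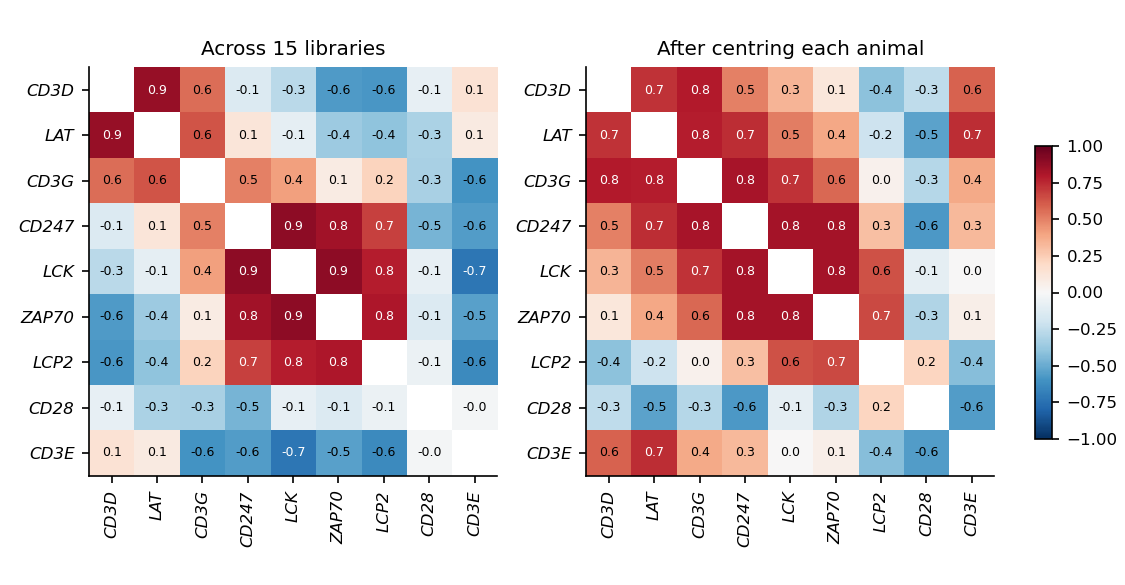
Pearson's r between the log2 CPM of the 9 members over 15 libraries (left) and after the mean of each animal was taken out (right), on a colour scale from −1 (blue) to 1 (red). On the left *CD247*, *LCK*, *ZAP70* and *LCP2* form a red square and *CD3E* has blue cells against them, and on the right the cells of *CD3E* with *LAT* and *CD3D* are red.

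Among 10764 other tested genes with a symbol, those whose log2 CPM was most like that of *CD3E* over the 15 libraries were *ADGRE1* (r = 0.91), *HYI* (0.89), *CFAP46* (0.89), *FBLN5* (0.89) and *LRRC47* (0.88). By its highest library, each was at the top in the same pair of animals, Z15303 and Z15408, though *HYI* and *FBLN5* overlapped there with Z15228. Since they were picked by this r, the shared pattern follows from the choice. *ADGRE1* was at 6.85 to 11.7 CPM in Z15303 and Z15408 and at 0.482 to 3.82 CPM in the others, and *CFAP46* at 1.24 to 3.81 against 0 to 0.518 CPM. No gene followed the whole set closely: the highest mean r with the 9 members was 0.35 for *TSPAN32*, then 0.35 for *MECR*, 0.34 for *POLR3C*, 0.34 for *NKG7*, a cytotoxic granule gene, and 0.34 for *RCC1L*.

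The T-cell genes were next set against the B-cell gene *MS4A1*, which encodes CD20. Its low level after treatment was known from earlier results on these libraries, so the direction is no independent support. *MS4A1* was at 191, 85.6 and 79.8 CPM in Z15228, 75.3, 24.3 and 37.5 in Z15339, 44.9, 22.0 and 17.2 in Z15408, 42.3, 24.4 and 10.8 in Z15303, and 32.5, 19.3 and 25.6 in Z13076. The log2 ratio of *CD3E* to *MS4A1* counts was −0.98 ± 1.64 pre-treatment, 0.27 ± 1.58 at week 12 and 0.48 ± 2.26 at week 18 (SD over 5 animals). It was higher than pre-treatment in 5 of 5 animals at both times, by 0.44 to 1.95 at week 12 (mean 1.25, a ratio 2.38 times as high) and by 0.28 to 2.53 at week 18 (mean 1.45, 2.74 times). The spread between animals was larger than this: the two-sided exact permutation test of 5 against 5 libraries, which can reach 0.0079, gave p = 0.262 at week 12 and p = 0.278 at week 18 (both 0.417 after Benjamini-Hochberg adjustment over 3 comparisons). The permutation test does not pair an animal's libraries, so lasting differences between animals enter its p. It does not measure the spread of the change within animals, whose SD was 0.54 at week 12 and 0.89 at week 18. When the signs of the 5 within-animal differences were flipped in every way (exact sign-flip test, two-sided), p was 0.0625 at each time, the smallest that 5 animals allow. From week 12 to week 18 the ratio was higher in 2 of 5 animals, with a mean difference of 0.21 (exact permutation p = 0.881).

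With *CD3D* in place of *CD3E*, a choice made after the data were seen, the log2 ratio was 2.94 ± 1.004 pre-treatment, 4.08 ± 0.81 at week 12 and 4.16 ± 1.21 at week 18. It was higher at week 12 by 1.14 (5 of 5 animals, exact permutation p = 0.0794, exact sign-flip p = 0.0625) and at week 18 by 1.22 (4 of 5 animals, exact permutation p = 0.135, exact sign-flip p = 0.125). For the mean of the 3 CD3 genes against a list of B cell markers the differences were 0.96 and 0.99. Most of the change in the *CD3D* ratio lay in the B-cell gene: *MS4A1* had log2 fold changes of −1.13 (standard error 0.58) and −1.17 (0.58), with edgeR adjusted p = 1.00 in both, and was lower in 5 of 5 animals at each time, while *CD3D* had 0.058 and 0.024. With the block, *MS4A1* had edgeR adjusted p = 0.0768 and 0.0534, above the threshold, whereas DESeq2's Wald test with the block called it at both times (adjusted p = 0.000181 and 2.07e-05).

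**Figure D5:**
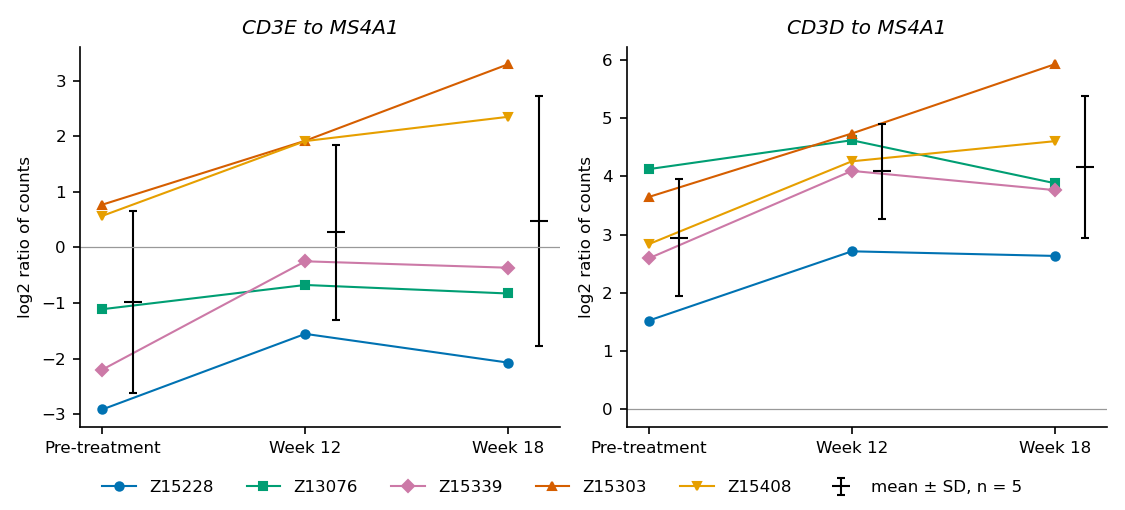
log2 ratio of counts of *CD3E* (left) and *CD3D* (right) to *MS4A1* at the 3 time points, with 1 line per animal and the mean ± SD of 5 animals in black. In the left panel each line is higher at both later times than at pre-treatment, and the animals lie apart by more than the change, from −2.92 to 0.77 pre-treatment.

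For the coreceptor genes, whose products hold LCK, no difference from pre-treatment was detected. *CD4* had 174 ± 22.2, 203 ± 43.8 and 198 ± 49.9 CPM at the 3 time points, with log2 fold changes of 0.22 (standard error 0.18) at week 12 and 0.19 (0.18) at week 18. *CD8A* had 271 ± 85.3, 273 ± 103 and 254 ± 73.8 CPM, with 0.012 (0.27) and −0.091 (0.27). Its values were 0.14 and 0.029 without the later libraries of Z15303, and −0.12 and −0.23 without the pre-treatment library of Z15408. Neither *CD4* nor *CD8A* passed edgeR's test (adjusted p = 1.00), and *CD8B* was not found by name in the table. Of 18 T cell markers that are not members, 16 were above 0 at week 12 and 16 at week 18, with medians of 0.12 and 0.12, and 0 passed edgeR's adjusted p of 0.05. At an unadjusted p under 0.05, 1 was higher at each time. Their summed level was 3590 to 3748 CPM pre-treatment, 3557 to 4740 at week 12 and 3760 to 4272 at week 18. The 23 B cell markers had medians of −0.87 and −0.82, with 0 above 0, and 18 monocyte markers had medians of −0.23 and 0.020. Since values are per library, a smaller B cell or monocyte part raises the share of the other genes, and its part in the members' values was not tested.

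Around the 9 members, 93 further genes of the T-cell receptor pathway were listed, of which 86 were in the table and 85 were tested. None passed edgeR's adjusted p of 0.05 in any comparison, with or without the block. At an unadjusted p under 0.05 there was 1 higher and 0 lower at week 12, 0 and 0 at week 18, and 1 and 1 between the later times (4 and 0, 2 and 1, and 1 and 4 with the block). Of the 85, 50 were above 0 at week 12 (58.8%), 37 at week 18 (43.5%) and 30 at week 18 vs. week 12 (35.3%), with medians of 0.049, −0.035 and −0.038. By role, medians at week 12 were 0.067 for 5 receptor chains and coreceptors, 0.070 for 14 surface and costimulatory receptors, 0.096 for 19 adaptors and scaffolds, −0.0018 for 15 kinases, 0.054 for 15 phosphatases and negative regulators, and −0.031 for 17 genes of the distal module and transcription factors.

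The pathway genes with the smallest p in each direction stayed short of the threshold after adjustment (edgeR adjusted p = 1.00 in each case). At week 12 the highest placed were *SLA*, an adaptor that damps receptor signalling, with 0.28 (standard error 0.11) and higher in 5 of 5 animals, *UBASH3A*, a negative regulator of the receptor, with 0.31 (0.15), and the adaptor *SH2D2A*, with 0.28 (0.15). On the lower side were *CTLA4*, the inhibitory counterpart of CD28, with −0.49 (0.27) and lower in 5 of 5 animals, the phosphatase gene *PTPN6*, with −0.21 (0.14), and the adaptor *GRB2*, with −0.12 (0.089). *CTLA4* was low throughout, from 4.3 to 15.7 CPM. At week 18 they were *CD6*, *DOK2* and *TRAC*, the constant part of the receptor alpha chain, with 0.26 (0.16), 0.24 (0.16) and 0.16 (0.12), and *ITPR1*, *SLAMF6* and *MALT1*, with −0.30 (0.19), −0.27 (0.20) and −0.19 (0.15). Without the pre-treatment library of Z15408 *MALT1* had −0.012 and *ITPR1* −0.13 at week 18. Without the later libraries of Z15303 *SLAMF6* had −0.15 and *DOK2* 0.16. Between week 12 and week 18 *FOS*, an immediate early transcription factor, was higher in 5 of 5 animals, with 0.34 (0.14), and *PTPN6* and *THEMIS* had 0.15 (0.14) and 0.25 (0.25). *PIK3R1*, a regulatory subunit of PI3-kinase, was lower in 5 of 5, with −0.26 (0.12), and *SH2D2A* and *SLA2* had −0.29 (0.15) and −0.30 (0.18).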

How the data were processed

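Per the submitters' processing notes and the study's methods, total RNA was amplified with a SMART-Seq kit and turned into libraries with Nextera XT, and the authors used STAR 2.7.9a both to align reads to the *Macaca nemestrina* genome and to count them per gene. The deposited values are raw counts, without normalization or replicate pooling. The libraries do not mark strand, so reads of overlapping antisense genes cannot be told apart.

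Counts were analysed in R 4.3.3 with edgeR 4.0.16: filterByExpr (minimum count 10), TMM scaling and the quasi-likelihood F test of the time point, with no other term, over the 15 libraries together, with Benjamini-Hochberg adjustment over 12880 features and a threshold of 0.05. A standard error is the size of the log2 fold change over the square root of its F. log2 CPM used a prior count of 2, and ratios of counts a pseudocount of 0.5 counts. Differences between animals were tested with the animal terms added. DESeq2 1.42.0, limma 3.58.1, other scalings and filters, the animal as a block and leaving out each animal were alternatives, and the scripts were tested on simulated data. The animal numbers pair the libraries: deviations from the time point means had a mean r of 0.55 over 15 pairs of libraries of one animal (0.35 to 0.68) and −0.14 over 60 pairs of different animals and times, and the biological coefficient of variation was 29.3% without the block and 16.9% with it. The samples of an animal are repeated samples, and the 5 animals are the replicates.

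The members and gene lists were chosen with earlier results of these data known. Genes named were the 9 members, *MS4A1*, *CD4* and *CD8A*, the 3 pathway genes with the smallest p in each direction of a comparison, and the 5 genes most correlated with *CD3E* and with all members. *CFAP46* and *ADGRE1* were described further after their values were seen.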

Additional observations from a re-analysis of the deposited data

Results flagged for a closer look

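In each group of 5 libraries the gap between the highest or lowest level and its nearest neighbour was compared with the whole range of the group, with Dixon's critical value of 0.71. Of 36 groups, from 12 genes at 3 time points, 4 passed it, and chance flags about 1 in 20 groups. *LCP2* was highest pre-treatment in Z15339, with 251 CPM against 214 in the nearest animal, and lowest at week 18 in Z15303, with 172 CPM against 235. *MS4A1* was highest in Z15228 both pre-treatment, with 191 CPM against 75.3, and at week 12, with 85.6 CPM against 24.4. The Z15303 library is also 1 of those with the fewest counts. What sets these libraries apart was not tested.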

How the results depend on the processing

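No member passed an adjusted p of 0.05 in a comparison of time points under any alternative (smallest 0.856). The number of features that passed at week 12 was 1 with DESeq2's Wald test and 1 in edgeR with the animal as a replicate block. At week 18 it was 1 in edgeR with the block. DESeq2 with the block called 27 features at week 12, 43 at week 18 and 1 between the later times, among them *MS4A1* at week 12 and week 18. Without the pre-treatment library of Z15408 and with the block, edgeR called 17 features at week 18. The block changed no other call.

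The signs of these small fold changes depended on the settings, and the cause was not tested. For *CD8A* at week 12 the log2 fold change was −0.0073 with limma-voom, −0.014 in edgeR with the block and −0.0089 in DESeq2 with it, and for *LCP2* between the later times these values were 0.0051, 0.0028 and 0.0013. *LAT* between the later times was −0.0047 without TMM and −0.00034 with a minimum count of 50. Within the 3 animals of shared dates, *LCP2* had −0.061 and *CD8A* −0.053 at week 12, and −0.042 and 0.048 at week 18. Between the later times they gave 0.10 for *CD3D*, 0.058 for *CD3G*, 0.0064 for *CD247*, 0.0097 for *LCK*, 0.018 for *ZAP70*, 0.019 for *LCP2*, −0.0028 for *CD28*, 0.10 for *CD4* and 0.10 for *CD8A*. In the other 2 animals *CD3D* was −0.11 and *CD28* 0.26 at week 12. At week 18 these animals gave −0.36 for *CD3D*, −0.28 for *CD3E*, −0.23 for *CD3G*, −0.14 for *CD247*, −0.0098 for *ZAP70*, −0.055 for *LAT*, 0.29 for *CD28*, 0.14 for *ITPR1* and 0.041 for *MALT1*. Between the later times they gave a median of −0.19 over the members, −0.31 for *CD3E* and −0.10 for *LAT*.

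The following settings were chosen after seeing the data. Without the later libraries of Z15303, *CD3D* was −0.050 and *CD3E* −0.11 at week 12. At week 18 *CD3D* was −0.11, *CD3E* −0.054 and *CD8A* 0.029, and between the later times *LAT* was −0.012 and *MS4A1* 0.078. With the block as well, *CD3D* was −0.00044 at week 12 and −0.047 at week 18, *CD8A* 0.0082 at week 18, and *LAT* −0.0086 and *MS4A1* 0.15 between the later times. Without the pre-treatment library of Z15408, *CD3D* was −0.055, *CD3G* −0.015 and *CD8A* −0.12 at week 12, and *CD3D* −0.092 and *CD3G* −0.13 at week 18. With the block as well, *CD3D* was −0.022 and *CD8A* −0.13 at week 12, and at week 18 *CD3D* was −0.057, *CD3G* −0.0079, *CD247* −0.019, *LCK* −0.0077 and *ZAP70* −0.048. Without all 3 libraries, 2008 features and 2 members differed between animals.

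Leaving out each animal in turn, the log2 fold changes at week 12 ran from −0.051 to 0.082 for *CD8A*, −0.0075 to 0.15 for *LCP2*, −0.20 to 0.028 for *CD28* and −0.0067 to 0.14 for *CD3D*. At week 18 they ran from −0.064 to 0.17 for *CD3D*, −0.048 to 0.15 for *CD3G*, −0.055 to 0.18 for *CD247*, −0.021 to 0.13 for *LCK*, −0.072 to 0.13 for *ZAP70* and −0.24 to 0.011 for *CD28*. Between the later times they ran from −0.11 to 0.026 for *CD3D*, −0.039 to 0.076 for *CD28*, −0.18 to 0.076 for *MS4A1*, −0.10 to 0.0019 for *LCK*, −0.037 to 0.030 for *LCP2*, −0.10 to 0.041 for *CD4* and −0.022 to 0.038 for *LAT*. Features that differed between animals numbered 2284 to 4291, and members 2 to 4. The log2 ratio of *CD3E* to *MS4A1* from week 12 to week 18 ran from −0.088, without Z15303, to 0.39. With 5 animals, the intervals given above are the limit on what these data say of a member's change.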
